A study of Mus musculus with 8 samples.

Results

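The transcriptome of Eednull cells at day 5 of spinal motor neuron (SMN) differentiation was set against that of wild-type cells at the same day. Of the 36808 genes in the FPKM table, 22304 were protein coding, and 12711 of these were compared because they reached 1 FPKM or more in either library and were above 0 in both. FPKM is the number of sequenced fragments of a gene divided by its transcript length and by the mapped fragments of the library. The Eednull line carries a point mutation in Eed and has the BALB/cR1 background, whereas the wild-type line E14 has the 129/Ola background, so genotype, strain and clone cannot be told apart. Both were grown as embryonic stem cells (ESCs) in serum and LIF on irradiated mouse embryonic fibroblasts, were plated briefly to remove the fibroblasts, and were then differentiated with retinoic acid and a Hedgehog agonist. Each condition had 1 library, so every fold is a description of 2 libraries with no replicate check and no test. The series holds 8 such libraries, the others being E14, CJ7 (129/S), Eednull and Suz12delta (C57/BL6) ESCs and Suz12GT (129/Ola) and Suz12delta cells at day 5.

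EED is a core subunit of Polycomb repressive complex 2 (PRC2), which methylates lysine 27 of histone H3 at the promoters of many developmental regulators and is associated with their silencing. During SMN differentiation retinoic acid gives cells a posterior neural identity and sets the Hox code, and Hedgehog signalling ventralises them into OLIG2 progenitors. These progenitors then leave the cell cycle through proneural factors and become neurons that express MNX1, ISL1 and LHX3.

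The wild-type library carried the markers that its label calls for and the Eednull library held them at lower levels. Mnx1, the motor neuron homeobox gene, was at 16.7 FPKM in wild-type day 5 and at 2.44 FPKM in Eednull day 5. Lhx3 was at 25.8 and 0.356 FPKM in the same libraries. Chat, which makes acetylcholine, was at 7.61 and 0.0583 FPKM, and Isl1 at 18.1 and 4.43 FPKM. Mnx1 and Isl1 were at 1.28 and 1.06 FPKM in Eednull ESCs, so both were higher in Eednull day 5 than before differentiation. By these markers the library is described below only as Eednull day 5 and not as motor neurons. It did not hold undifferentiated ESCs at their usual level either, since Pou5f1 was at 149 FPKM in Eednull ESCs and at 0.340 FPKM in Eednull day 5, beside 0.302 FPKM in wild-type day 5. Nr1h5, chosen after its values were seen, linked the library to its line, with 20.5 FPKM in Eednull ESCs, 5.60 FPKM in Eednull day 5 and at most 0.0221 FPKM in the other 6 libraries. Eed RNA itself, at 11.1 FPKM in wild-type and 11.5 FPKM in Eednull day 5, does not check a point mutation.

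Most genes had similar levels in both libraries, and those that differed by a large factor were more often higher in Eednull day 5. At the 2-fold limit 2110 genes were higher (16.6%) and 1150 were lower (9.05%), while 9451 lay within 2-fold. At the 4-fold limit 1174 genes were higher (9.24%) and 453 were lower (3.56%). Ratios were computed as log2 of (FPKM + 0.1) in Eednull over (FPKM + 0.1) in wild type, which understates the change of low genes, and their median over all genes compared was 0.05. These shares and this median are the background for every list below.

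Genes past 4-fold stood at different levels on the 2 sides. The 1174 higher genes had a median of 0.276 FPKM in wild-type day 5 and 4.26 FPKM in Eednull day 5. The 453 lower genes had a median of 9.40 FPKM in wild-type and 0.799 FPKM in Eednull day 5. In Suz12GT day 5, from a line with a gene trap in Suz12, the medians of the same genes were 1.16 and 11.8 FPKM, and in Suz12delta day 5, from a line with a truncated Suz12, they were 4.81 and 1.05 FPKM. By these medians the higher genes lay between both libraries in Suz12GT cells, whereas the lower genes were near the wild-type level there. With Suz12GT day 5 as the reference the balance turned, with 1426 genes 2-fold or more higher and 1724 lower, so that 45.3% of the genes past 2-fold were higher in place of 64.7%. The filter also bears on the balance, since 1301 genes reached 1 FPKM in Eednull only and 465 in wild type only, and a gene that enters through its higher library is bound to differ. Of the 10945 genes at 1 FPKM or more in both libraries, 918 (8.39%) were 2-fold or more higher and 771 (7.04%) were lower. A further 209 protein-coding genes reached 1 FPKM in a single library of the pair and were listed at 0 in the other, 165 of them in wild type and 44 in Eednull. A value of 0 is not proof of absence, because 10 of the 165 and 5 of the 44 reached 1 FPKM in all the remaining libraries.

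**Figure D1:**
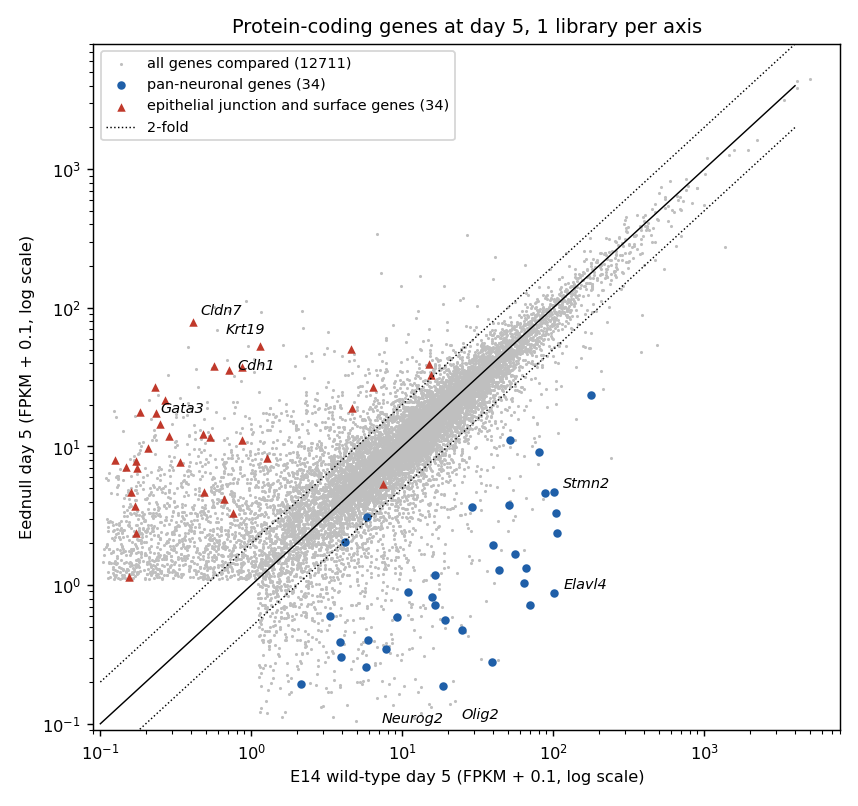
Each point is a protein-coding gene compared, with its FPKM + 0.1 in E14 wild-type day 5 on the x axis and in Eednull day 5 on the y axis, both on log scales. The solid line marks equal levels and the dotted lines 2-fold. The 34 pan-neuronal genes (blue circles) lie on or below the diagonal, and all but 1 of the 34 epithelial genes (red triangles) lie above it.

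The genes with the largest differences at 10 FPKM or more named both sides of the comparison. The 10 largest differences toward wild type were in Olig2, Hes5, Neurog2, Myt1, Glra1, Elavl4, Dll3, Nhlh1, Neurog1 and Nhlh2, which are neural progenitor, proneural and neuronal genes. Toward Eednull they were in Cldn7, Plagl1, Nepn, Eps8l2, Wfdc2, Gm53, Clu, Krt19, Krt7 and St14. Cldn7, a tight junction claudin, was at 0.311 FPKM in wild-type and 79.1 FPKM in Eednull day 5, a 193-fold difference. Olig2 was at 22.1 and 0.0455 FPKM, a 153-fold difference in the other direction. Log2 ratios ranged from -6.75 to -7.26 on the lower side and from 6.86 to 7.59 on the higher side. In Suz12GT day 5 Cldn7 was at 2.29 FPKM and Olig2 at 10.5 FPKM, and in Suz12delta day 5 they were at 60.6 and 0.107 FPKM.

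Promoter sequences of 4 genes are shown because they stand for both sides, Olig2 and Neurog2 for the lower and Gata3 and Epcam for the higher genes. They are RefSeq sequences on GRCm38.p6, from 250 bases before to 50 bases after the start, written on the gene's strand with each CG dinucleotide in capitals. CG-rich promoters are the usual place of PRC2 in mammalian cells.
Olig2 (chr16:91225300-91225599, plus strand): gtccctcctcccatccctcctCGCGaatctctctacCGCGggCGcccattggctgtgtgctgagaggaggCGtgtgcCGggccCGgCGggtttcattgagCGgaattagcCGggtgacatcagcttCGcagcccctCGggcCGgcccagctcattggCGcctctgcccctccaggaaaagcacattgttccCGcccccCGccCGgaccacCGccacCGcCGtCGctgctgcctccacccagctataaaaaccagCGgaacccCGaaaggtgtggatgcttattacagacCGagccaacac
Neurog2 (chr3:127632886-127633185, plus strand): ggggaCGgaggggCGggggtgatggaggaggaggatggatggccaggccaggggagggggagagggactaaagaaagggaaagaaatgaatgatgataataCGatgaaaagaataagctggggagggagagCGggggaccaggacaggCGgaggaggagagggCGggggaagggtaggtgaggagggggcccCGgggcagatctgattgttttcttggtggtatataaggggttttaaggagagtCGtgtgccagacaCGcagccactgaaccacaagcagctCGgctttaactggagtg
Gata3 (chr2:9878551-9878850, minus strand): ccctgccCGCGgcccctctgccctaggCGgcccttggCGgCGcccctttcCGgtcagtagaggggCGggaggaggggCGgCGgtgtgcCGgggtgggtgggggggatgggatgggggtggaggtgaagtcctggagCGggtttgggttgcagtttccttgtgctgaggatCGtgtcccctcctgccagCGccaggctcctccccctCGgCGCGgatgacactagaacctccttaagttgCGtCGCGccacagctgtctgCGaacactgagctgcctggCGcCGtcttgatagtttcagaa
Epcam (chr17:87635729-87636028, plus strand): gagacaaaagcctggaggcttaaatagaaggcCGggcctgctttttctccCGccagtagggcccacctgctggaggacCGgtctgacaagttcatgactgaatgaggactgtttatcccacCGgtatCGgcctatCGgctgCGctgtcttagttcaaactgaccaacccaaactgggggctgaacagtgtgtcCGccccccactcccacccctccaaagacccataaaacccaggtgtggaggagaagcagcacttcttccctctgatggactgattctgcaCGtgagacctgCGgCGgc
The motif CG, which reads the same on both strands, occurred 25 times in the Olig2 promoter and 22 times in that of Gata3. It occurred 10 times in the Neurog2 promoter and 11 times in that of Epcam, beside a median of 7 over all 32851 promoters of that length. As many CG dinucleotides as in Olig2 were present in 18.4% of all promoters, and as many as in Neurog2 in 43.5%, in Gata3 in 23.1% and in Epcam in 41.4%. The lower and the higher pair each held a CG-dense and a less dense window. Only 69.4% of the genes compared matched a promoter by symbol, so no count over all of them is given.

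Factors of the neural tube progenitor were lower in Eednull day 5 almost without exception. Of 20 list members in the table, 17 were compared, 16 were 2-fold or more lower and none was 2-fold or more higher, with a median log2 ratio of -2.99. Dbx1, Dbx2 and Pax7 were under 1 FPKM in both libraries, and Sox1 was not analysed here. The Olig2 gene spans chr16:91225795-91228922 on NCBI build 37, and its neighbour in function, Olig1, was at 9.70 FPKM in wild-type and 0.189 FPKM in Eednull day 5. Nkx6-1 and Nkx2-2, ventral homeobox genes that respond to Hedgehog, were at 13.9 and 4.46 FPKM in wild-type day 5. In Eednull day 5 they were at 1.56 and 0.150 FPKM. Sox3 was at 17.4 and 0.845 FPKM and Fabp7, a radial glia gene, at 27.3 and 0.331 FPKM. Differences were smaller for the broader progenitor genes. Pax6 was at 21.9 FPKM in wild-type and 9.35 FPKM in Eednull day 5, Nes at 24.8 and 9.21 FPKM, and Prom1 at 31.4 and 15.8 FPKM, which was just within 2-fold. Pax6 was the only member of this list whose direction turned with Suz12GT day 5 as the reference, where its log2 ratio was 0.19. Summed over the list, FPKM was 328 in wild-type, 288 in Suz12GT, 65.3 in Eednull and 68.2 in Suz12delta day 5.

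The proneural factors and the Notch pathway genes that they drive were lower to a similar extent. Here 21 of 26 genes were compared, 17 were 2-fold or more lower and 1 was higher, and the median log2 ratio was -2.73. Neurog2, the basic helix-loop-helix factor of motor neuron progenitors, was at 20.7 FPKM in wild-type and 0.0398 FPKM in Eednull day 5. Neurog1 and Nhlh1, factors of the same family, were at 11.9 and 13.3 FPKM in wild type and at 0.00929 and 0.0197 FPKM in Eednull cells. Hes5, a Notch target of neural progenitors, was at 43.2 and 0.186 FPKM, and Dll3, a Notch ligand, at 33.4 and 0.195 FPKM. Neurod4 was at 24.1 FPKM in wild type and listed at 0 in Eednull. Hes1, a repressor of the same family as Hes5, went the other way, from 11.999 FPKM in wild-type to 30.9 FPKM in Eednull day 5. The ligands Jag1 and Jag2 were within 2-fold, and so was Btg2.

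Motor neuron genes were lower in 14 of the 20 members compared and higher in 2, with a median log2 ratio of -2.07. The deepest differences after Neurog2 were in Lhx4, at 9.41 and 0.0628 FPKM, and in Lhx3, Chat, Prph and Ret. Isl1, which pairs with LHX3 in the motor neuron, kept a lower but measurable level, at 18.1 FPKM in wild-type and 4.43 FPKM in Eednull day 5. Onecut1 was at 10.1 and 2.22 FPKM. Both members that were higher have known roles outside neurons. Aldh1a2, which makes retinoic acid in mesoderm and in limb-level motor neurons, was at 0.935 FPKM in wild-type and 34.3 FPKM in Eednull day 5. Tbx20, also a cardiac factor, was at 0.200 and 1.15 FPKM.

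Pan-neuronal genes showed the lowest median of the 54 lists. All 34 members compared were lower in Eednull day 5, 33 of them 2-fold or more, and the median log2 ratio was -4.31. Elavl4, a neuronal RNA-binding protein, was at 102 FPKM in wild-type and 0.778 FPKM in Eednull day 5. Myt1, a zinc finger factor of new neurons, was at 39.2 and 0.178 FPKM. Dcx, a microtubule protein of migrating neurons, was at 63.7 and 0.928 FPKM. Stmn2, another microtubule regulator, was at 101 and 4.59 FPKM, although both ESC libraries already held it at 75.7 and 49.9 FPKM. St18 and Scg2 were at 15.5 and 1.88 FPKM in wild type and listed at 0 in Eednull. The summed level of the list was 1462 FPKM in wild-type day 5, 86.0 FPKM in Eednull day 5 and 95.8 FPKM in Suz12delta day 5, and was thus below its sum of 181 FPKM in Eednull ESCs. In bulk RNA fewer neurons and less neuronal RNA per cell cannot be told apart.

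Genes of neuronal excitability and wiring were mixed. Among neurotransmitter genes 10 of 15 compared were 2-fold or more lower and 4 higher. Glra1, a glycine receptor subunit, was at 15.4 FPKM in wild-type and 0.0323 FPKM in Eednull day 5, and Th, which makes catecholamines, at 15.9 and 0.250 FPKM. Gria3, a glutamate receptor subunit, was among the 4 on the higher side, at 10.3 FPKM in Eednull and 1.52 FPKM in wild type. Voltage-gated channels were lower in 10 and higher in 5 of 27 genes, with a median of -0.20. Kcnq3, a potassium channel subunit, was at 0.0420 and 3.60 FPKM. Scn9a was at 1.52 FPKM in wild type and listed at 0 in Eednull. Of 36 axon guidance genes 11 were higher and 9 lower. Slit1, Unc5a and Dcc were 4-fold or more lower, and the semaphorins Sema3c and Sema3e and the receptor Epha7 were 4-fold or more higher, Sema3c at 4.33 FPKM in wild-type and 40.9 FPKM in Eednull day 5. Clustered protocadherins, cell surface proteins that diversify neurons, were 2-fold or more lower in 17 of 21 and higher in none, with a median of -1.52. Their near-identical exons can share reads, so single members are uncertain.

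Other neural regions and the crest gave small numbers of genes at low levels. Of 26 interneuron factors, 10 were compared, 7 were higher and 1 lower. Those that were higher included Gata3, Gata2, Pax2, Lmx1b, Lhx2 and Tal1, which also act outside the nervous system, while the more restricted En1, Evx1, Lbx1 and Lhx5 were under 1 FPKM in both libraries. Prdm8 was the lower member, at 19.9 and 1.25 FPKM. Of 21 forebrain, midbrain and eye field factors only 4 were compared, with Nr2f1 at 163 FPKM in wild-type and 52.0 FPKM in Eednull day 5. Among crest factors 6 of 10 were higher, led by Snai2, Zic1 and Snai1, and 3 were lower, Ngfr and Ednrb among them. Pax3 and Ets1 were listed at 0 in wild type and at 1.21 and 8.14 FPKM in Eednull. Among 12 glial genes 5 were compared, 2 were lower and 1 higher. Slc1a2 was at 14.1 and 0.582 FPKM, Olig1 was the other lower member, and Slc1a3 was at 3.63 and 8.28 FPKM.

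The Hox genes, which record position along the body axis, divided by position within each cluster. Of the 15 genes of paralog groups 1 to 5, 13 were compared and all 13 were 2-fold or more lower in Eednull day 5, with a median log2 ratio of -2.21. Hoxb5, of the Hoxb cluster, was at 51.8 FPKM in wild-type and 3.97 FPKM in Eednull day 5, and Hoxd4 was at 42.1 and 4.97 FPKM. Groups 6 to 8 were divided, with 4 of 8 higher and 3 lower. Hoxb6 was at 35.5 and 5.20 FPKM and Hoxb8 at 91.2 and 19.03 FPKM, whereas Hoxc8 was at 0.0138 and 6.33 FPKM. Of the 16 genes of groups 9 to 13, 8 were compared, 7 were 2-fold or more higher and none was lower. All 7 were under 1 FPKM in wild type, so they passed the filter through Eednull alone and were bound to be higher. The remaining gene compared, Hoxb9, reached 1 FPKM in both libraries and was within 2-fold. In addition Hoxa9, Hoxa10, Hoxa11, Hoxa13, Hoxb13, Hoxc10 and Hoxd10 were listed at 0 in wild type and stood between 1.95 and 12.2 FPKM in Eednull day 5, the highest being Hoxa10. Hoxd13, of the most posterior group, was at 0.0426 and 6.68 FPKM, and was already at 6.55 FPKM in Eednull ESCs.

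The sums over these groups show the same division by position. Groups 1 to 5 summed to 427 FPKM in wild-type and 90.2 FPKM in Eednull day 5, and groups 9 to 13 to 3.52 and 65.6 FPKM. In Suz12GT day 5 both sums, 327 and 26.8 FPKM, lay between those of the 2 libraries, and in Suz12delta day 5 they were 126 and 62.9 FPKM. Most of the 26.8 FPKM was Hoxb9, at 21.7 FPKM in Suz12GT, above its 3.32 FPKM in wild-type and 6.22 FPKM in Eednull day 5. Hoxa9 and Hoxb13 were at 2.14 and 2.59 FPKM in Suz12GT, whereas Hoxa10 was listed at 0 and Hoxd13 was at 0.110 FPKM there. Groups 9 to 13 already summed to 39.1 FPKM in Eednull ESCs and to 3.31 FPKM in E14 ESCs, whereas groups 1 to 5 summed to 17.1 and 7.73 FPKM there. Eednull cells therefore held more RNA of groups 1 to 5 at day 5 than as ESCs, although less than wild-type cells at day 5. Hoxc6 was at 0.872 FPKM in wild-type and 3.42 FPKM in Eednull day 5, but its direction turned against Suz12GT day 5, with a log2 ratio of -1.79. Cdx2, a caudal factor upstream of the Hox genes and also a trophoblast and gut factor, was at 0.00927 and 5.79 FPKM. The Hox cofactors Meis1, Meis2, Pbx2 and Pbx4 were within 2-fold, and Pbx3 and Meis3 were lower.

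**Figure D2:**
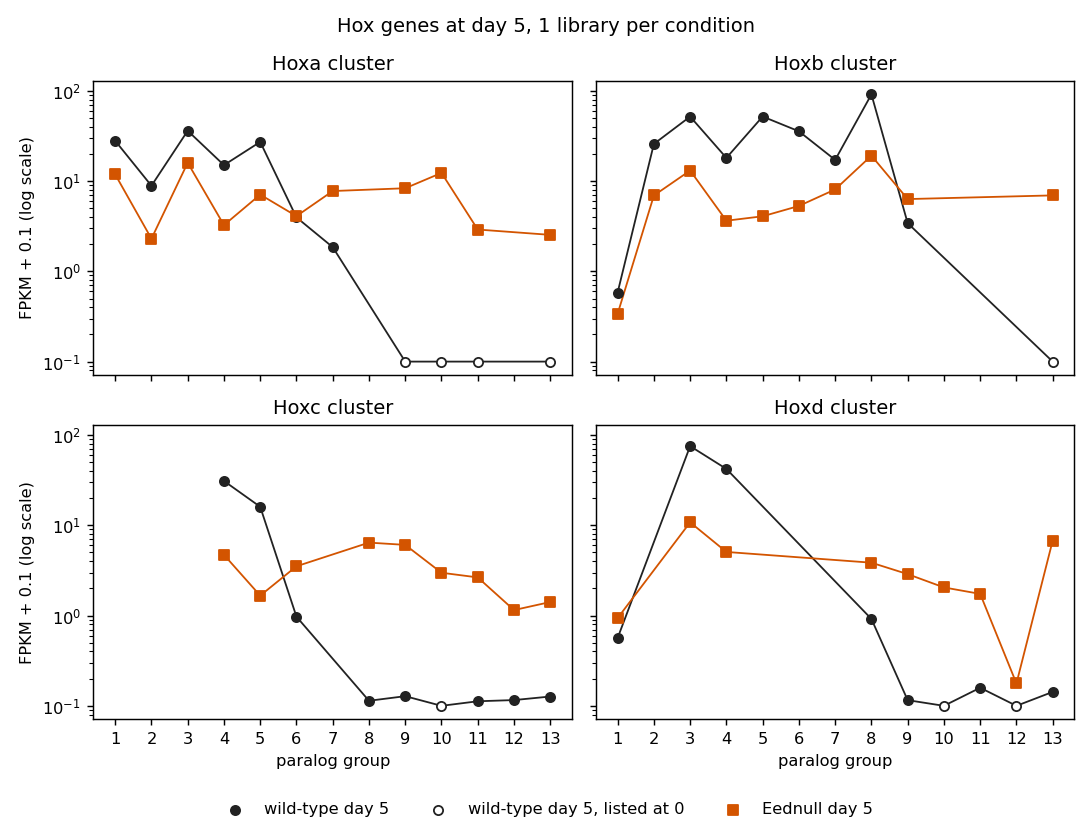
FPKM + 0.1 on a log scale against paralog group for the 4 Hox clusters, in wild-type day 5 (black circles) and Eednull day 5 (orange squares); open circles are genes listed at 0. The black line lies above the orange one in groups 2 to 5 wherever a gene exists and falls below it from group 9 on in every cluster.

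Some response genes of both inducing signals were at like levels in both libraries, and 5 of them are given here, chosen after their values were seen. Rarb, a direct target of retinoic acid, was at 22.7 FPKM in wild-type and 26.2 FPKM in Eednull day 5, after 0.445 and 0.632 FPKM in the corresponding ESCs. Cyp26b1, which degrades retinoic acid, was at 61.8 and 56.2 FPKM. For Hedgehog, Ptch1 was at 68.9 and 64.9 FPKM, Gli1 at 10.6 and 11.01 FPKM and Hhip at 4.78 and 6.01 FPKM. None of these 5 genes differed by 2-fold.

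Within the wider retinoic acid list 10 of 20 genes compared were 2-fold or more higher and 4 lower. Several genes of retinoid metabolism and transport stood on the higher side. Dhrs3, a retinal reductase, was at 13.1 FPKM in wild-type and 170 FPKM in Eednull day 5. Stra6, a retinol transporter, was at 8.62 and 75.5 FPKM, and Aldh1a1, Aldh1a2, Rbp4 and Rdh10 were also higher. The binding proteins Crabp1 and Crabp2 were lower, at 81.0 and 104 FPKM in wild-type and 11.8 and 20.1 FPKM in Eednull day 5. Rbp4 was higher than in wild type but not than in Suz12GT day 5, against which its log2 ratio was -0.57. Of 14 Hedgehog pathway genes 4 were higher and none was lower. Shh, the ligand of notochord and floor plate, was at 1.71 and 8.84 FPKM and Foxa2, a floor plate and endoderm factor, at 2.96 and 13.5 FPKM, while Ihh and Foxf2 were listed at 0 in wild type and at 3.55 and 3.63 FPKM in Eednull. Shh was not higher than in Suz12GT day 5, where the log2 ratio was -0.23.

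Ligands and antagonists of the Wnt and BMP pathways were more often higher. Among Wnt genes 18 of 33 compared were 2-fold or more higher and 4 lower, with a median of 1.47. Rspo1 and Rspo3, which amplify Wnt signals, were at 0.0301 and 0.0185 FPKM in wild-type and 6.07 and 4.51 FPKM in Eednull day 5. Wnt11 was at 0.0314 and 5.77 FPKM. The feedback target Axin2 was at 7.43 and 6.13 FPKM, and Wnt7a and Fzd9 were the deepest on the lower side. Lef1 was listed at 0 in wild type and at 4.35 FPKM in Eednull. Of BMP and TGF-beta genes 15 of 23 were higher and 2 lower, with a median of 1.96. Bmp4 was at 0.140 FPKM in wild-type and 6.64 FPKM in Eednull day 5, and Tgfbi, a secreted TGF-beta target, at 0.343 and 26.9 FPKM. Id1, a BMP target, was at 19.7 and 19.8 FPKM. For FGF genes, 6 of 18 were higher and 3 lower, with Spry1, Etv4 and Etv5 among the higher.

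Epithelial genes had one-sided differences, in the opposite direction to the neuronal ones. Of 37 epithelial junction and surface genes 34 were compared and 33 were 2-fold or more higher in Eednull day 5, with a median log2 ratio of 4.79. Cdh1, which encodes E-cadherin, was at 0.608 FPKM in wild-type and 35.7 FPKM in Eednull day 5. It had been at 46.8 and 40.04 FPKM in the corresponding ESCs. Ocln, Crb3 and St14 were at 17.5, 21.5 and 26.6 FPKM in Eednull and at 0.0833, 0.169 and 0.130 FPKM in wild type. The epithelial regulators Grhl2, Grhl3, Esrp1 and Esrp2 were at 6.96, 7.73, 6.88 and 17.3 FPKM in Eednull and at 0.134 FPKM or less in wild type. Ovol2 was listed at 0 in wild type and at 1.46 FPKM in Eednull. Pkp2 was the only member on the lower side, at 7.33 and 5.30 FPKM. The list summed to 62.4 FPKM in wild-type day 5, 119 FPKM in Suz12GT, 640 FPKM in Eednull and 614 FPKM in Suz12delta day 5, and to 414 and 430 FPKM in E14 and Eednull ESCs. The epithelial sum of Eednull day 5 thus lay above that of its own ESCs.

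Keratins, the intermediate filaments of epithelia, were few. Only 6 of 46 were compared and 5 were higher. Krt19 was at 0.490 FPKM in wild-type and 68.9 FPKM in Eednull day 5, Krt8 at 0.845 and 53.1 FPKM and Krt18 at 1.83 and 37.8 FPKM. These 3 and Krt7 are keratins of simple epithelia. Krt4 and Krt15 were listed at 0 in wild type and at 5.92 and 3.44 FPKM in Eednull, and Krt10 was lower, at 2.11 and 0.739 FPKM. Trophoblast genes overlapped this list through Krt7, Krt8, Krt18 and Krt19. Of 15 trophoblast genes compared 14 were higher, with a median of 4.29. Gata3 and Gata2, also factors of surface ectoderm, kidney duct and blood, were at 15.7 and 11.97 FPKM in Eednull and at 0.118 and 0.131 FPKM in wild type. Elf5, Plac1 and Hand1 were listed at 0 in wild type and at 3.03, 2.45 and 1.08 FPKM in Eednull, and 8 list members, among them Tpbpa, Gcm1 and Eomes, were under 1 FPKM in both libraries.

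Mesenchymal genes were not the reverse of the epithelial ones. Of 21 compared, 15 were higher and 3 lower, with a median of 3.26, but many were under 1 FPKM in wild type. Cdh2, or N-cadherin, was at 40.9 FPKM in wild-type and 14.6 FPKM in Eednull day 5, and Vim was at 399 and 204 FPKM. Zeb1 and Zeb2, which repress Cdh1, were at 19.6 and 16.4 FPKM in wild-type and 7.07 and 4.60 FPKM in Eednull day 5. In contrast Snai1, Snai2, Twist1 and Twist2 were at 3.23 to 4.57 FPKM in Eednull and at 0.253 FPKM or less in wild type. The annexins Anxa1 and Anxa3 and the galectin Lgals3 were at 22.4, 16.2 and 10.7 FPKM in Eednull and at 0.237 FPKM or less in wild type. Genes of both kinds were thus present in the same bulk library.

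**Figure D3:**
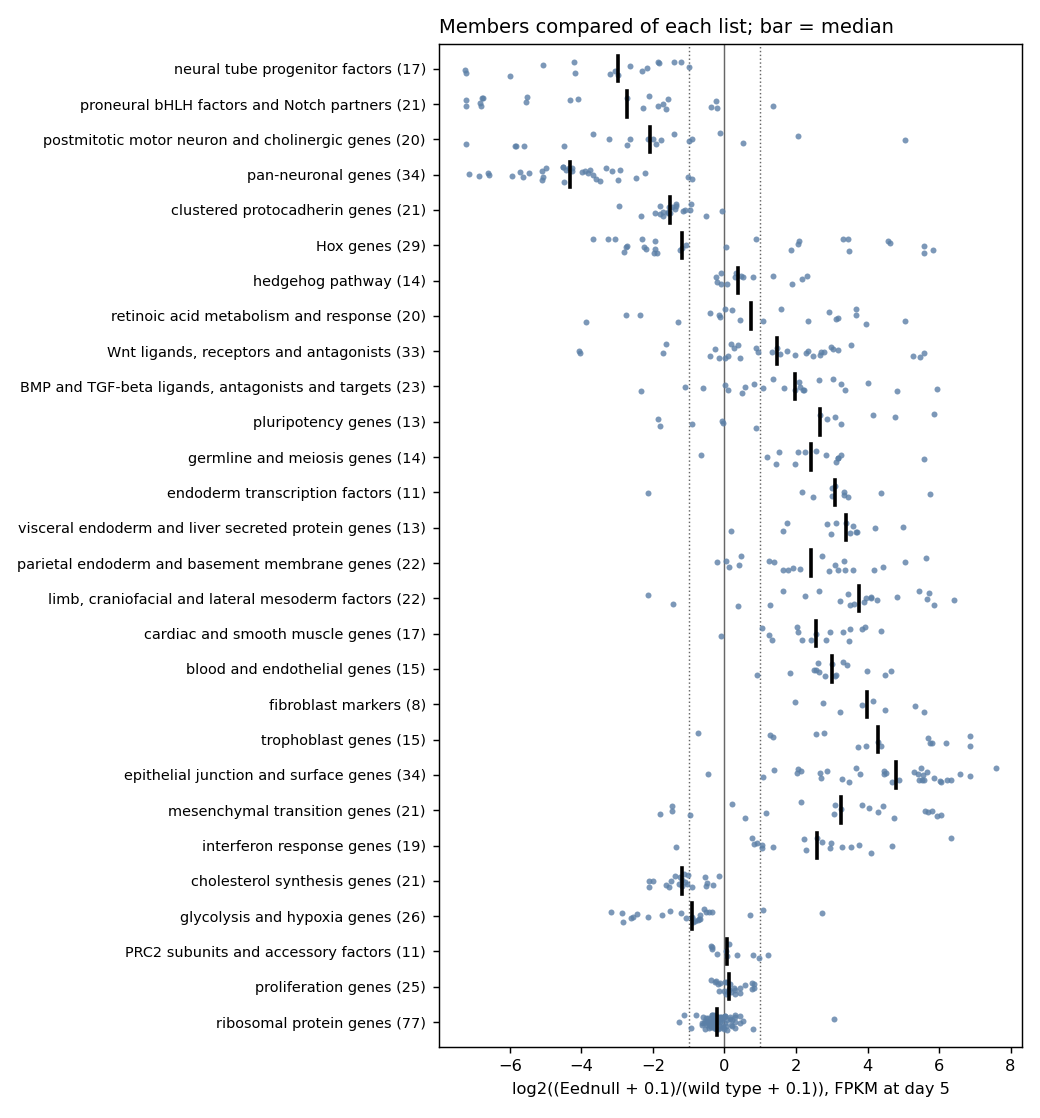
Log2 ratio of Eednull to wild-type day 5 for every member compared of 28 lists, 1 point per gene; the black bar is the list median, the number of genes is in parentheses and dotted lines mark 2-fold. The medians of progenitor, proneural, motor neuron and pan-neuronal lists lie left of 0, those of endoderm, mesoderm, trophoblast and epithelium right of 0, and those of PRC2, proliferation and ribosomal genes near 0.

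Most lists with higher genes contained many that were under 1 FPKM in wild-type day 5, and the counts at 1 FPKM or more in both libraries are smaller. By that stricter rule 15 of 16 pan-neuronal genes and 6 of 7 progenitor factors were lower. Of epithelial genes 7 of 8 were higher, of basement membrane genes 10 of 15 and of matrix genes 16 of 20. Endoderm factors kept 3 members, 2 higher and 1 lower. Trophoblast genes kept 4, with 3 higher, blood and endothelial genes 3, with 2 higher, and fibroblast markers 1, which was higher. The one-sided counts of these lists thus rest mostly on genes that passed the filter through Eednull day 5 alone. Wnt genes were higher in 4 and lower in 2 of 17, with a median log2 ratio of 0.26, and mesenchymal genes were higher in 4 and lower in 3 of 10, with a median of 0.39. For 8 lists the median changed sign. The median log2 ratio was then -0.16 for forebrain factors over 2 genes, -1.80 for limb and lateral mesoderm factors over 2 genes and -2.72 for neural crest factors over 3 genes. It was -0.48 for pluripotency genes over 6, -0.80 for streak genes over 3 and -0.88 for interneuron factors over 3. It was -0.66 for the single skeletal muscle gene left, and 0.88 in place of -0.65 for glial genes over 3. By the same rule no limb, neural crest, pluripotency, streak or interneuron member was 2-fold or more higher. The members of these lists that were 2-fold or more higher thus passed the filter through Eednull day 5 alone.

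Endoderm factors were higher in 10 of the 11 members compared, with a median of 3.10. Gata6, of primitive endoderm, was at 0.653 FPKM in wild-type and 4.07 FPKM in Eednull day 5, and was already at 4.27 FPKM in Eednull ESCs. Foxa1, of gut and other epithelia, was at 0.711 FPKM in wild-type and 8.17 FPKM in Eednull day 5. Gata4, Prdm1 and Isx were listed at 0 in wild type and at 12.1, 3.02 and 2.58 FPKM in Eednull. Sox17 was at 0.0389 and 1.09 FPKM, but its direction turned against Suz12GT day 5, where the log2 ratio was -1.39. Onecut1, which this list shares with motor neurons, was the lower member. Secreted proteins of visceral endoderm and liver were higher in 12 of 13, with Apoa1 at 0.0536 FPKM in wild-type and 4.79 FPKM in Eednull day 5 and Ttr at 0.0348 and 2.40 FPKM. Afp and Apoa2 were listed at 0 in wild type and at 2.72 and 1.91 FPKM in Eednull, and Alb was under 1 FPKM in both libraries. Basement membrane genes were higher in 17 of 22 and lower in none. Lamb1, a laminin chain, was at 1.52 and 54.1 FPKM, yet Lamb1 and Nid1 were not higher than in Suz12GT day 5, with log2 ratios of -0.04 and -0.73.

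Mesodermal genes were higher for derivatives of lateral and intermediate mesoderm, with little RNA of the primitive streak. T, the streak and notochord gene brachyury, was at 0.104 FPKM in wild-type and 0.671 FPKM in Eednull day 5 and so was not compared. Of 37 limb, craniofacial and lateral mesoderm factors 22 were compared, 19 were higher and 2 lower, with a median of 3.78. Only the 2 lower members reached 1 FPKM in both libraries. The 19 higher ones entered through Eednull alone and were bound to be higher. Wt1, of the urogenital ridge and mesothelium, was at 0.327 and 36.3 FPKM. Osr1, Tcf21 and Tbx3 were at 0.127, 0.0666 and 0.0815 FPKM in wild-type and 11.8, 8.39 and 10.4 FPKM in Eednull day 5. Irx2, Prrx1, Tbx15, Foxf2, Dlx6 and Hand1 were listed at 0 in wild type, with Irx2 at 11.6 FPKM in Eednull. Sall1 and Irx1 were lower. Of 9 streak and early mesoderm genes compared 5 were higher and 2 lower, and the higher ones included Pdgfra, at 0.135 and 10.98 FPKM, and Kdr, at 0.235 and 7.49 FPKM, while the lower ones, Dll3 and Lfng, are also neural Notch genes.

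Contractile, vascular and connective tissue genes followed. Of 17 cardiac and smooth muscle genes 16 were higher and none lower. Myl9 and Tagln, smooth muscle genes, were at 2.95 and 2.24 FPKM in wild-type and 46.0 and 17.9 FPKM in Eednull day 5. Acta2 was at 11.2 and 28.0 FPKM, while Tnnt2 of cardiac muscle was not compared. Of 17 skeletal muscle genes 15 were under 1 FPKM in both libraries, and of the 2 compared Tnnt3 was at 0.204 and 1.80 FPKM. Among blood and endothelial genes 14 of 15 were higher, with the embryonic globins Hbb-y and Hba-x at 2.19 and 2.21 FPKM in wild-type and 18.3 and 24.8 FPKM in Eednull day 5. Cd34 and Emcn were listed at 0 in wild type and at 3.004 and 1.08 FPKM in Eednull. All 8 fibroblast markers compared were higher, with Col3a1 at 0.292 and 18.8 FPKM and Col1a1 at 0.290 and 8.68 FPKM, and Prrx1 and Lum were listed at 0 in wild type. Only 1 of the 8 reached 1 FPKM in both libraries, and the others entered through Eednull alone and were bound to be higher. Of 12 fibroblast markers 3 were at 0 in wild-type day 5 and none in Eednull day 5. The list summed to 4.76 FPKM in wild-type and 68.1 FPKM in Eednull day 5, and to 88.6 and 281 FPKM in E14 and Eednull ESCs, which had been grown on fibroblast feeders. The part of feeder RNA in the higher fibroblast, collagen and matrix genes was not tested.

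Collagen and matrix genes were higher on the whole. Of 21 collagens 17 were higher and 2 lower, led by Col14a1, at 0.0342 FPKM in wild-type and 6.80 FPKM in Eednull day 5. Col9a3 was listed at 0 in wild type and at 5.70 FPKM in Eednull. Among matrix glycoproteins and remodelling enzymes 30 of 34 were higher and none lower, with a median of 2.81. Tnc, or tenascin C, was at 0.0857 and 10.03 FPKM and Sparc at 18.8 and 144 FPKM. Vcan, which wild-type day 5 also held in quantity, was at 51.4 and 53.9 FPKM. Of cartilage and bone genes 8 of 12 were higher and 1 lower, with Hapln1 at 0.0129 and 5.67 FPKM.

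The pluripotency genes did not share a direction. Of 32 genes 13 were compared, and 18 were under 1 FPKM in both libraries, among them Pou5f1, Nanog and Esrrb. Sox2 and Lin28a, which neural progenitors also express, were lower, at 20.7 and 16.6 FPKM in wild-type and 5.63 and 4.72 FPKM in Eednull day 5. The 7 higher members were Tbx3, Klf5, Nr5a2, Zfp42, Tcfcp2l1, Utf1 and Fgf5, of which the first 3 also act in mesoderm, gut epithelium or endoderm. Klf4 was listed at 0 in wild type and at 3.21 FPKM in Eednull. The summed level of the list was 64.2 FPKM in wild-type and 73.0 FPKM in Eednull day 5, against 2098 and 1930 FPKM in their ESCs. Germline and meiosis genes were higher in 13 of 14 and lower in none. Stra8, a retinoic acid target of germ cells, was at 2.17 and 20.4 FPKM, Rec8 at 14.7 and 58.4 FPKM and Tex13 at 0.0660 and 7.88 FPKM. Prdm1 and Taf7l were listed at 0 in wild type and at 3.02 and 1.25 FPKM in Eednull.

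Imprinted genes held some of the largest absolute differences. Of 23 compared 13 were higher and 3 lower, with a median of 1.37. Plagl1, a zinc finger factor, was at 0.468 FPKM in wild-type and 101 FPKM in Eednull day 5, Mest at 6.74 and 338 FPKM and Peg3 at 26.9 and 335 FPKM. Igf2, the fetal growth factor, was at 7.11 and 177 FPKM, and Dlk1 at 41.1 and 233 FPKM. On the lower side were Grb10, an insulin receptor adaptor, at 240 and 8.20 FPKM, the CDK inhibitor Cdkn1c at 26.1 and 3.17 FPKM, and Snrpn at 38.6 and 11.01 FPKM. Nnat was at 9.69 and 143 FPKM but was below Suz12GT day 5, with a log2 ratio of -0.57. Plagl1 was at 48.0 FPKM in Suz12GT and 66.7 FPKM in Suz12delta day 5, so that E14 day 5 was the lowest of the 4 day 5 libraries. Strain and parental allele cannot be read from these values.

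All 25 proliferation genes were within 2-fold, with a median log2 ratio of 0.14. Of 10 CDK inhibitors and D cyclins 4 were higher and 3 lower. Cdkn2a, the Polycomb target that encodes p16INK4A and p19ARF, was at 3.11 FPKM in wild-type and 66.6 FPKM in Eednull day 5, and its neighbour Cdkn2b at 0.208 and 8.34 FPKM. Cdkn2a was at 32.0 FPKM in Suz12GT day 5 and 28.8 FPKM in Eednull ESCs. Cdkn1c, Cdkn1b and Cdkn2d, inhibitors of cells that leave the cycle, were lower. Of the 18 p53 targets 17 were compared, 5 were higher and none lower, with Perp, which is also a desmosomal gene, at 0.381 and 12.3 FPKM. Cdkn1a, at 17.6 and 33.1 FPKM, was within 2-fold. In the Lin28, Hmga and Igf2bp list 2 of 8 were higher and 3 lower, Hmga2 at 7.70 and 60.1 FPKM and Lin28b at 17.8 and 8.15 FPKM.

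RNA of the Polycomb machinery was little different. Of 11 PRC2 genes 10 were within 2-fold, with Suz12 at 16.2 FPKM in wild-type and 17.6 FPKM in Eednull day 5 and Ezh2 at 98.2 and 76.0 FPKM. Phf19, an accessory factor, was at 0.453 and 1.196 FPKM. Among 20 PRC1 genes 18 were within 2-fold. Bmi1 was among the higher members, at 17.3 and 36.96 FPKM. All 7 DNA methyltransferase, Uhrf1 and Tet genes compared were within 2-fold.

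Metabolic lists were lower where they concerned glucose and sterols. Of 26 glycolysis and hypoxia genes 11 were lower and 2 higher, with a median of -0.90. Slc2a1, the GLUT1 glucose transporter, was at 142 FPKM in wild-type and 15.8 FPKM in Eednull day 5, Ldha at 173 and 50.9 FPKM and Bnip3 at 38.3 and 5.22 FPKM. Among 21 cholesterol synthesis genes 15 were lower and none was higher, with a median of -1.19. Lss, which closes the sterol ring, was at 41.6 and 9.58 FPKM. In Suz12GT day 5 the glycolysis list was also below wild type, with a median log2 ratio of -0.80, and the cholesterol list at -0.29. Lysosome genes were higher in 6 of 22 and lower in none, with Grn at 23.9 and 114 FPKM.

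Interferon response genes were higher in 15 of 19 and lower in 1, with a median of 2.58. Ifitm1, also a germ cell and mesoderm surface protein, was at 1.06 FPKM in wild-type and 93.6 FPKM in Eednull day 5, and at 86.0 and 85.4 FPKM in their ESCs. Usp18 was at 0.0921 and 4.81 FPKM, Stat2 at 7.34 and 2.82 FPKM, and Rsad2 was listed at 0 in wild type and at 1.26 FPKM in Eednull. Genes of the unfolded protein and integrated stress response were lower in 5 of 18 and higher in none, with Asns at 104 and 29.7 FPKM and Chac1 at 7.36 and 0.956 FPKM. Immediate early genes were higher in 7 of 12, led by Fosl2, at 0.183 and 4.75 FPKM, and lower in 1, Jund. Housekeeping genes mostly had like levels, with 74 of 77 ribosomal protein genes, 75 of 78 respiratory chain genes and 35 of 37 proteasome genes within 2-fold.

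Most genes past 4-fold on the higher side also reached 1 FPKM in ESC libraries, though a smaller share than among genes within 2-fold. The ESCs had been grown on fibroblast feeders, and the part of feeder RNA in these counts was not tested. Of the 1174 genes 709 (60.4%) reached 1 FPKM in both E14 and Eednull ESCs, 22 in E14 ESCs only, 196 (16.7%) in Eednull ESCs only, and 247 (21.0%) in neither. Of the 1174, 314 (26.7%) were higher in E14 ESCs than in Eednull day 5, and 407 (34.7%) were higher in Eednull ESCs. Among genes within 2-fold these shares were 52.0% and 42.5%. The class was chosen as high in Eednull day 5, which by itself lowers such shares. Under 1 FPKM in E14 ESCs, CJ7 ESCs, E14 day 5 and Suz12GT day 5 alike were 258 genes, so these reached that level only in Eednull or Suz12delta libraries. At 1 FPKM or more in Suz12delta day 5 were 1126 of the 1174 (95.9%), beside 98.6% of the genes within 2-fold. Of the 453 lower genes 222 (49.0%) were in neither ESC library, and 441 (97.4%) were at 1 FPKM or more in Suz12GT and 230 (50.8%) in Suz12delta day 5. Of genes within 2-fold, 98.8% were at that level in Suz12GT and 98.6% in Suz12delta day 5. Among the 9451 genes within 2-fold 93.6% reached 1 FPKM in both ESC libraries.

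**Figure D4:**
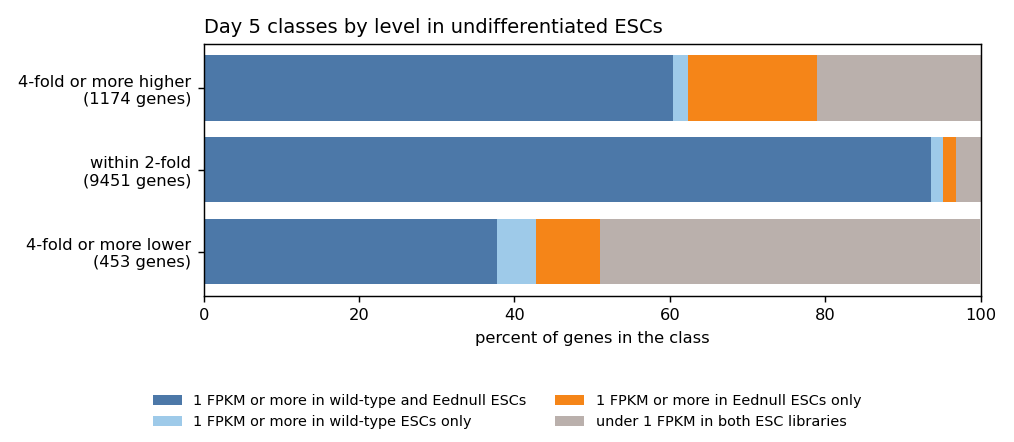
Percent of the genes in each day 5 class (4-fold or more higher in Eednull, within 2-fold, 4-fold or more lower) by their level in E14 wild-type and Eednull ESCs. Genes present in both ESC libraries make up 60.4% of the higher, 93.6% of the similar and 37.7% of the lower genes.

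Single genes, picked as examples, had different histories by this measure and need not stand for their lists. Cdh1 and St14 were at or above 10 FPKM in both ESC libraries and in Eednull day 5, and were under 1 FPKM in wild-type day 5. Nepn, a small leucine-rich proteoglycan gene, was listed at 0 in both ESC libraries and was at 17.9 FPKM in Eednull and 0.0237 FPKM in wild-type day 5. Wt1 was listed at 0 in E14 ESCs and at 6.80 FPKM in Eednull ESCs. Olig2 was at 0.0436 FPKM in E14 ESCs and 5.19 FPKM in Eednull ESCs, so that it was higher in Eednull cells before differentiation and lower after it. Neurog2, in contrast, was listed at 0 in E14 ESCs and was at 0.115 FPKM in Eednull ESCs. The median log2 ratio of Eednull to E14 in ESCs, taken over the members compared at day 5, was 0.08 for the epithelial list, 0.15 for the pan-neuronal list, 2.46 for endoderm factors and 1.32 for limb and lateral mesoderm factors. The limb and lateral mesoderm list summed to 78.9 and 103 FPKM in E14 and Eednull ESCs, and to 23.9 and 150 FPKM in wild-type and Eednull day 5. Like the epithelial list, it thus had a lower sum in wild-type day 5 than in E14 ESCs. Tbx3, which is also on the pluripotency list, and Sall1 were at 27.0 and 22.2 FPKM in E14 ESCs. The sum there thus rested largely on these genes and does not show a mesoderm programme in ESCs.

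**Figure D5:**
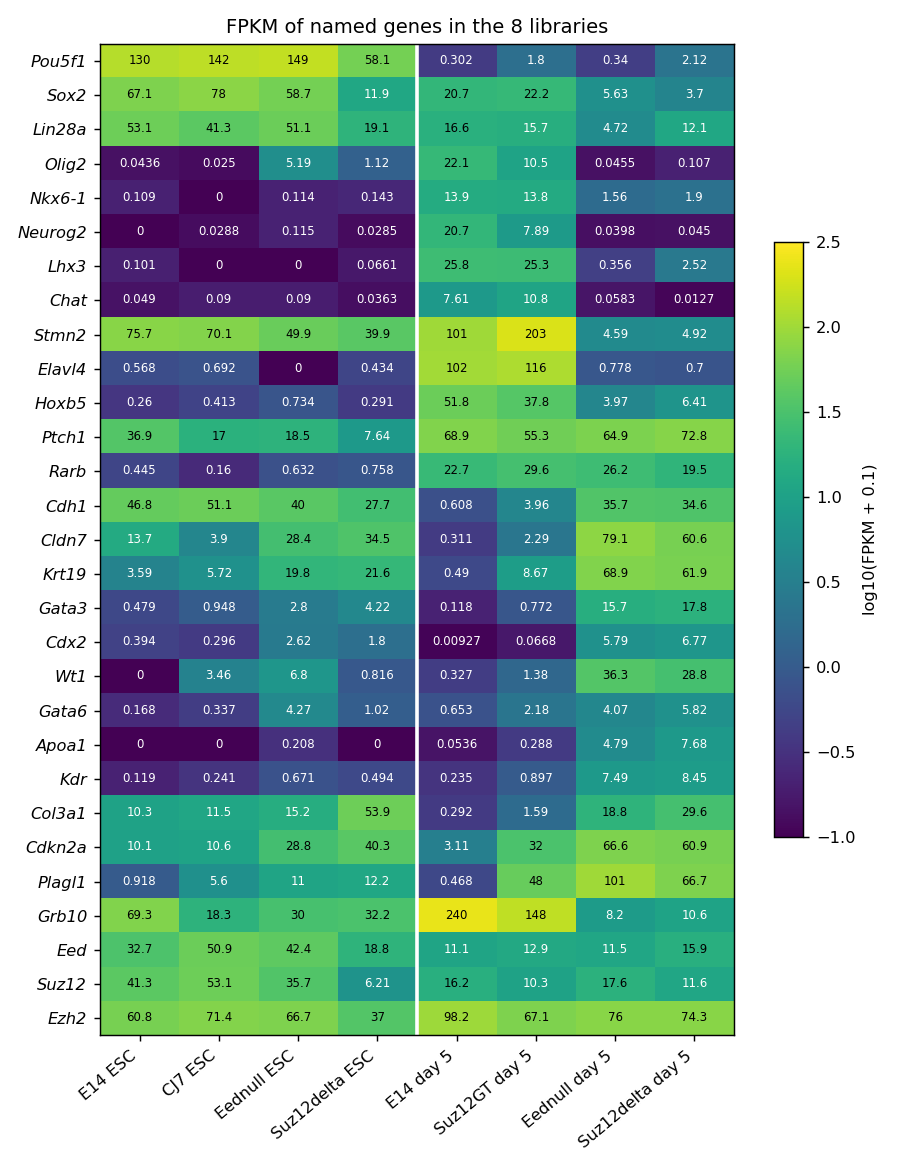
FPKM of 29 genes in the 8 libraries, printed in each cell and coloured by log10(FPKM + 0.1), with ESC libraries on the left and day 5 libraries on the right of the white line. Eednull and Suz12delta day 5 share the low neural and high epithelial values. On this log scale Suz12GT day 5 is nearer to wild type than to Eednull day 5 for neural genes. Olig2 and Neurog2 are still lower in it, at 10.5 and 7.89 FPKM against 22.1 and 20.7 FPKM in wild type. Stmn2 is higher in it, at 203 against 101 FPKM. Cdh1, Krt19 and Plagl1 have intermediate values in Suz12GT day 5.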

How the data were processed

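RNA was extracted with Trizol and sequenced on a GA-2 or a HiSeq instrument, and which instrument read which library is not given in the sources used here. Per the submitters' processing notes, which name tools without their order, TopHat 1.3.2, Bowtie 0.12.7, Cufflinks 1.2.1, Cuffdiff and the mouse build mm9 (NCBI build 37) were used. The deposited values are FPKM per gene, made by the authors, in 8 columns of 1 table, 1 library each, and 0 columns of values were left out of the mapping. No read counts were used, so the depth of each library is unknown and no counting error can be given. Summed FPKM over protein-coding genes ranged from 264700 to 333800. Whether the libraries keep strand is not given in the sources used here.

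Gene identifiers were matched to biotypes and positions in GENCODE mouse release M1, and 704 had no entry. Protein-coding genes that reached 1 FPKM in either of both libraries and were above 0 in each were compared by log2 of the ratio of FPKM + 0.1, on FPKM as deposited. Limits of 2-fold and 4-fold stand in place of a test, because each condition has 1 library. Genes listed at 0 are given by their values. Genes were named by 4 rules: a list of key genes, the 10 largest differences each way at 10 FPKM or more, up to 6 members with the largest ratio and up to 2 in the other direction from each of 54 lists, and list members at 0 in either library. Outside these rules, Axin2, Btg2, Crabp2, Cyp26b1, Dlk1, Epcam, Esrp1, Gli1, Grhl2, Grhl3, Hbb-y, Hhip, Hoxb6, Hoxb8, Hoxd4, Id1, Jag1, Jag2, Ldha, Meis2, Peg3, Prom1, Ptch1, Rarb, Rdh10, Rec8, Ret, Snrpn, Sparc, Stra6, Tagln, Tal1, Vcan, Zeb1, Nr1h5 and the members named as under 1 FPKM were chosen after their values were seen. The comparison, the lists and the members were chosen with earlier results of these data known. Alternatives were pseudocounts of 0.01 and 1 FPKM, other minimum levels, 2 rescalings, all biotypes and Suz12GT day 5 as the reference. The calculation was tested on simulated data. Promoters were matched by symbol to RefSeq. Python 3.11.15, NumPy 2.4.6, pandas 2.3.3 and matplotlib 3.10.9 were used. Some list members are counted but not reported by name here.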

Additional observations from a re-analysis of the deposited data

Results flagged for a closer look

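In 22 of the 345 genes named by the rules and compared, the ratio of Eednull to wild type was 2-fold or more in opposite directions in ESCs and at day 5. With 1 library on each side the difference between the stages was not tested. Many of the 345 were named for a large day 5 ratio, and the share over all genes compared was not computed. Higher in Eednull ESCs and lower in Eednull day 5 were 13 of them, most of them neural or motor neuron genes. Their day 5 log2 ratios were -7.26 for Olig2, -5.08 for Olig1, -4.19 for Nkx2-2, -2.73 for Mnx1 and -2.003 for Isl1. The log2 ratios in ESCs were 5.20, 4.47, 2.94, 2.60 and 1.85 for the same 5 genes. Olig2 was at 5.19 FPKM in Eednull ESCs and 0.0436 FPKM in E14 ESCs, and Mnx1 at 1.28 and 0.127 FPKM. Isl1 and Nkx2-2 were at 1.06 and 1.17 FPKM in Eednull ESCs, so these and Mnx1 were near the limit of 1 FPKM. The other day 5 ratios of this kind were -4.48 for Prph, -4.38 for Slc1a2, -1.65 for Nr2f1, -1.94 for Hoxa5, -1.45 for Irx1, -1.95 for Pcdha1, -2.61 for Slc16a3, a lactate transporter, and -2.10 for Idi1, of sterol synthesis.

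Lower in Eednull ESCs and higher in Eednull day 5 were the other 9. The day 5 log2 ratio was 5.86 for Tbx3, 4.15 for Nr5a2 and 3.08 for Tcfcp2l1, which are ESC factors, and their ratios in ESCs were -1.16, -1.08 and -1.52. At day 5 the ratio was 3.11 for Eng, 3.07 for Rpl39l, 2.80 for Epha7, 2.67 for Col9a2, 2.08 for Egr1 and 1.17 for Cox6b2. Rpl39l was at 30.0 FPKM in E14 ESCs and 0.140 FPKM in wild-type day 5, and at 9.14 and 1.91 FPKM in the Eednull libraries. In ESCs of CJ7, the other wild-type line, Rpl39l and Cox6b2 were at 11.2 and 14.6 FPKM. These values lay near the 9.14 and 13.7 FPKM of Eednull ESCs. All 9 genes were nevertheless higher in CJ7 than in Eednull ESCs.

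Among genes outside the protein-coding comparison, 2 non-coding RNAs of imprinted loci, H19 and Airn, stood out as higher in Eednull day 5. H19 was at 1.92 FPKM in wild-type and 793 FPKM in Eednull day 5, with a log2 ratio of 8.62, beside 16.3 FPKM in Suz12GT and 796 FPKM in Suz12delta day 5. It was at 12.2 FPKM in E14 ESCs, 42.3 FPKM in CJ7 ESCs and 286 FPKM in Eednull ESCs. Airn was at 2.55 and 43.7 FPKM, with a log2 ratio of 4.05. Airn overlaps Igf2r in antisense, and without a stated strand their reads cannot be told apart.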

How the results depend on the processing

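The counts depended on how low genes were treated and on the reference library. The number of genes 2-fold or more higher, 2110, became 918 with a minimum of 1 FPKM in both libraries and 1031 with 5 FPKM in either. The number 4-fold or more higher became 478 with a pseudocount of 1 FPKM, 256 with 1 FPKM in both, 517 with 5 FPKM in either and 578 against Suz12GT day 5. The number 4-fold or more lower became 272 with a pseudocount of 1 FPKM, 205 with 1 FPKM in both and 749 against Suz12GT. Of 54 lists 25 had a median log2 ratio of 1 or more, and 14 did with 1 FPKM in both and also 14 against Suz12GT. With no minimum 67.9% of the genes past 2-fold were higher, with 1 FPKM in both 54.4% and with 5 FPKM in either 56.3%. The rescalings and the use of all genes left these counts within 1.5 times.

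Of lists with a median of 1 or more, 6 turned with 1 FPKM in both libraries, to -0.16 for forebrain, midbrain and eye field factors, -1.80 for limb, craniofacial and lateral mesoderm factors, -2.72 for neural crest factors, -0.48 for pluripotency genes, -0.80 for primitive streak genes and -0.88 for interneuron factors. With 5 FPKM in either it turned to -1.65 for forebrain factors and -1.34 for neural crest factors, and against Suz12GT to -0.98 for forebrain factors. Against Suz12GT, 19 named genes changed direction, with log2 ratios of -0.43 for Ctsh, -0.11 for Cubn, -0.40 for Etv4, -0.31 for Flt1, -1.26 for Fst, 0.059 for Hmga1, -1.79 for Hoxc6, -0.009 for Jun, -0.035 for Lamb1, -0.43 for Ndrg1, -0.73 for Nid1, -0.57 for Nnat, 0.19 for Pax6, -0.57 for Rbp4, -0.38 for Rpl39l, -0.23 for Shh, -1.39 for Sox17, -1.06 for Tbx20 and -0.68 for Vax2. The cause was not tested. Of the 1174 genes 4-fold or more higher than wild type, 480 were also 4-fold or more higher than Suz12GT, and of the 453 lower genes 390 were also that much lower; both counts share the Eednull library. With 1 library per condition no replicate could be left out. No paired analysis was possible because no condition has a second library.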

Other observations

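The 2706 genes compared outside the protein-coding set had a median log2 ratio of -0.14, with 215 (7.95%) 2-fold or more higher and 336 (12.4%) lower. The RNAs named here were chosen after their values were seen. Miat, a long non-coding RNA of neurons, was at 35.4 FPKM in wild-type and 1.29 FPKM in Eednull day 5. Sox2ot was at 8.46 and 0.0606 FPKM, although it overlaps Sox2 and the strand of the reads is not stated. At the imprinted Dlk1 locus Meg3, also past 2-fold, was at 125 and 269 FPKM and Rian at 82.6 and 122 FPKM. Both were below wild type in the other mutants, Meg3 at 0.890 FPKM in Suz12GT and 33.5 FPKM in Suz12delta day 5. Rian was at 1.12 and 15.5 FPKM there.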
